A study of Mus musculus with 10 samples.

Results

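The collagen genes of the mouse were taken as every gene whose symbol has the form Col, number, a, number and that was present in both tables of unique molecular identifier (UMI) counts. This gave 44 genes, out of 27998 in the table of E14Tg2a cells and 32285 in the table of R1 cells. They were grouped by the type of collagen they encode into 11 fibrillar chains, 6 chains of the basement membrane collagen IV, 6 beaded filament chains of collagen VI, 9 fibril-associated chains (FACIT), 3 short chains, 2 multiplexins, 4 transmembrane chains, and 3 chains of anchoring fibrils or other kinds.

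Collagens are triple helices of 3 chains that are wound in the endoplasmic reticulum, secreted and built into the extracellular matrix. Fibrillar collagens such as collagen I and collagen III form the fibers of connective tissue and are typical products of mesenchyme, whereas collagen IV forms the sheet-like network of basement membranes and is made by epithelia, endothelium and endoderm. In the early mouse embryo, basement membranes appear first, and fibrillar collagens follow as mesenchyme forms.

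Droplet-based scRNA-seq of single cells followed the in vitro differentiation of mouse embryonic stem cells (ESC) into primordial germ cell-like cells (PGCLC), which arise inside mixed embryoid bodies (EB). The wild-type line E14Tg2a gave 8 libraries. These were ESC kept without serum in 2i (inhibitors of MEK and GSK3β) and LIF, ESC in serum plus LIF (S+L), epiblast-like cells (EpiLC) after 1, 2 and 3 days in Activin A, bFGF and KSR, epiblast stem cells (EpiSC) passaged in Activin A and bFGF, and EB made from d2 EpiLC and grown for 2 or 4 days with BMP4, SCF, LIF and EGF. The line R1 gave 2 libraries of d4 EB, from wild-type cells (WT) and from the Mll3/4 dCD line, a derivative of R1 obtained from a single cell with point mutations that abolish the catalytic activity of MLL3 and MLL4. Both parental lines are male. There was 1 library for each condition. Condition, clone and library therefore cannot be told apart, and differences carry no p-value. The intervals given below are at 95% and cover counting error only.

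The libraries held between 227 cells (2i ESC) and 1699 cells (dCD d4 EB), with 8757170 to 22887974 UMIs in total and median depths from 11751 UMIs per cell (dCD d4 EB) to 36750 (d1 EpiLC). Levels are given as CPM, the summed UMIs of a gene scaled to 1e+06 UMIs of the library. Each UMI marks 1 transcript captured at its 3′ end, so levels of different genes were not divided by length. The tables were made with different kits and are only set side by side. Over pairs of libraries, 8 E14Tg2a barcodes were shared and 0 R1 barcodes. In R1, Kmt2c (MLL3) was at 47.5 CPM in WT and 53.8 CPM in dCD, and Kmt2d (MLL4) at 29.4 and 29.1 CPM. Transcript levels do not check a point mutation.

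Of the 44 collagen genes, 37 had at least 10 UMIs over the E14Tg2a table and 36 over the R1 table, 33 passed in both, and 4 passed in neither (Col10a1, Col19a1, Col28a1 and Col4a3). Collagen transcripts were scarce in 2i ESC, at 31.6 CPM for all members together, and among the E14Tg2a libraries most abundant in d4 EB, at 766 CPM. Among the 37 genes with at least 10 UMIs in E14Tg2a, the highest library was d4 EB for 21, EpiSC for 5, d1 EpiLC and d2 EB for 3 each, d2 EpiLC and S+L ESC for 2 each, d3 EpiLC for 1 and 2i ESC for 0. The kinds of chain were unevenly spread over the stages. In 2i ESC, S+L ESC and EpiLC most collagen transcripts came from a single gene, Col18a1, whereas in the E14Tg2a EB and in R1 WT d4 EB they came mainly from fibrillar chains.

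Col1a1, which encodes the more abundant chain of collagen I, the main collagen of bone, skin and tendon, was nearly undetected before EB formation. It was at 0.114 CPM in 2i ESC, 0.0990 in S+L ESC, 0.182, 0.179 and 0.284 in d1, d2 and d3 EpiLC, and 0.157 in EpiSC. It then reached 45.1 CPM (41.7 to 48.7) in d2 EB and 195 CPM (187 to 204) in d4 EB. Every library before EB therefore lay below both EB libraries. In R1 d4 EB, Col1a1 was at 351 CPM (343 to 359) in WT and 27.9 CPM (25.8 to 30.2) in dCD, and it was the most abundant collagen transcript of the WT library.

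Col1a2, its partner in the collagen I trimer, did not follow Col1a1 at every stage. It was at 0.114, 0, 0.364, 0.0896, 0.284 and 1.25 CPM in 2i ESC, S+L ESC, d1, d2 and d3 EpiLC and EpiSC, at 3.82 CPM (2.89 to 4.96) in d2 EB and at 117 CPM (110 to 124) in d4 EB. For the count of 0 in S+L ESC, a limit of 3 counts corresponds to 0.297 CPM. Col1a1 was thus already abundant in d2 EB, when Col1a2 was still low. The ratio of Col1a1 to Col1a2 UMIs was 11.8 (8.98 to 15.8) in d2 EB and 1.68 (1.56 to 1.81) in d4 EB, whereas it was 14.6 (13.4 to 16.1) in R1 WT d4 EB, where Col1a2 was at 23.9 CPM, and 2.34 (2.03 to 2.71) in dCD d4 EB, where it was at 11.9 CPM.

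Col3a1, the single chain of collagen III, which accompanies collagen I in loose connective tissue and vessel walls, appeared last. It had between 0 and 3 UMIs in each library up to d2 EB, where 2 UMIs gave 0.137 CPM, and 791 UMIs in d4 EB, at 82.4 CPM (76.7 to 88.3). In R1 it was at 23.7 CPM in WT and 2.14 CPM in dCD. Col5a1 and Col5a2 encode chains of collagen V, which starts and limits the growth of collagen I fibrils. Col5a1 was at 0.457 CPM in 2i ESC, 1.58 in S+L ESC, 0.909, 0.986 and 0.710 in d1 to d3 EpiLC, 6.43 in EpiSC, 4.44 in d2 EB and 37.6 in d4 EB, with 80.5 CPM in R1 WT and 15.5 CPM in dCD. The highest level of Col5a1 before d4 EB was thus that of EpiSC. Col5a2, which was under 1 CPM in all 6 libraries before EB, was at 1.37 CPM in d2 EB, 22.5 in d4 EB, 22.6 in R1 WT and 14.2 in dCD.

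Other fibrillar genes had their highest level elsewhere. Col2a1, the chain of cartilage collagen II that is also made by notochord and early neural tissue, was highest in EpiSC at 13.2 CPM (11.2 to 15.3). It was at 0.114 CPM in 2i ESC, 3.66 in S+L ESC, 6.55, 2.15 and 1.78 in d1 to d3 EpiLC, 1.64 in d2 EB and 0.937 in d4 EB, with 5.54 CPM in R1 WT and 8.21 in dCD. Unlike Col1a1, it was lower in d4 EB than in EpiSC. Col27a1, a short fibrillar chain of cartilage, was highest in d2 EB (5.32 CPM) and EpiSC (4.47 CPM), and Col11a1, a cartilage chain related to collagen V, stayed between 0.0896 and 0.571 CPM before EB and reached 2.66 and 2.92 CPM in d2 and d4 EB.

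Col4a1 and Col4a2 encode the chains of the ubiquitous collagen IV trimer. Col4a1 was at 0.457 CPM in 2i ESC, 3.46 in S+L ESC, 0.727, 3.85 and 5.96 in d1 to d3 EpiLC, 14.7 in EpiSC, 8.6 in d2 EB and 106 (99.8 to 113) in d4 EB. Unlike Col1a1 and Col3a1, it was present in each E14Tg2a library above the limit set by 3 counts. Col4a2 was at 0.343, 1.98, 0.546, 1.17, 3.98, 5.96, 7.85 and 61.4 CPM in the same order. In R1 d4 EB, Col4a1 was at 96.2 CPM in WT and 55.4 in dCD, and Col4a2 at 50.3 and 29.1 CPM. The ratio of Col4a1 to Col4a2 UMIs varied less between libraries than that of the collagen I chains: it was 1.10 (0.844 to 1.42) in d2 EB, 1.73 (1.56 to 1.92) in d4 EB, 1.91 (1.77 to 2.06) in R1 WT and 1.90 (1.73 to 2.09) in dCD. Both genes lie head to head on chromosome 8 of GRCm38, Col4a1 at chr8:11198423-11312826 on the minus strand and Col4a2 at chr8:11312805-11449287 on the plus strand, with annotated starts that overlap.

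The other collagen IV genes were sparse. Col4a5 and Col4a6, which also lie head to head, on the X chromosome, encode chains of the collagen IV found in kidney, smooth muscle and epithelia. Col4a5 had 0 UMIs in 2i ESC, S+L ESC and d1 and d2 EpiLC and reached 0.213 CPM in d3 EpiLC, with 0.392 for EpiSC and 1.16 and 2.92 CPM for d2 and d4 EB, and 11.9 CPM in R1 WT and 8.74 in dCD. Col4a6 was close to Col4a5 in the E14Tg2a EB, at 1.23 CPM in d2 EB and 2.92 CPM in d4 EB, but far below it in R1, at 0.486 and 0.481 CPM in WT and dCD. Of 23 d4 EB cells with a Col4a5 UMI, 2 (8.70%) had a Col4a6 UMI, as had 6.67% of the cells without a Col4a5 UMI. Detection of both genes was too low to tell whether they share cells.

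Col18a1, a multiplexin of basement membranes whose C-terminal fragment is endostatin, was the only collagen gene above 20 CPM in 2i ESC and EpiLC. It was at 21.0 CPM in 2i ESC, 41 in S+L ESC, 97.7 in d1 EpiLC, 107 (101 to 113) in d2 EpiLC and 72.1 in d3 EpiLC. It was lower in EpiSC (27.7 CPM) and d2 EB (15.9 CPM), and higher again in d4 EB (72.8 CPM), with 76.9 CPM in R1 WT and 85.3 in dCD. Col18a1 with Col15a1, the other multiplexin, made 66.4% of all collagen UMIs in 2i ESC, 81.9%, 80.0% and 70.9% in d1, d2 and d3 EpiLC, and 12.6% and 9.70% in d2 and d4 EB. In d2 EpiLC, 96.5% of cells held a Col18a1 UMI at a median depth of 35956 UMIs, compared with 0.692% for Col1a1. Thinned to 15374 UMIs, the Col18a1 share was 80.9% in d2 EpiLC, 35.5% in EpiSC and 14.3% in d2 EB. No cell type that lacks Col18a1 was at hand as a background.

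The remaining named members were low. Col12a1, a FACIT chain that sits on collagen I fibrils, did not exceed 0.208 CPM in any E14Tg2a library but was at 13.0 CPM in R1 WT and 6.73 CPM in dCD. Col13a1, a transmembrane chain of cell adhesion sites, was at 0.114, 2.28, 0.546, 0.269, 0.0710, 0.627, 3.21 and 9.58 CPM from 2i ESC to d4 EB in the order used above, with 12.6 CPM in R1 WT and 5.59 in dCD. EpiSC had the highest level of 2 genes that were otherwise under 2 CPM in E14Tg2a. These were Col16a1, a FACIT chain, at 7.76 CPM, and Col7a1, the chain of anchoring fibrils, at 4.86 CPM. Collagen IX, a FACIT of cartilage built from 3 chains, did not appear as a unit. Col9a1 was at 4.30 and 7.60 CPM in d2 and d4 EB and at most 0.235 CPM before, whereas Col9a2 was lowest in 2i ESC (0.914 CPM) and highest in d2 EpiLC (6.10 CPM), and Col9a3 lowest in d4 EB (0.312 CPM) and highest in EpiSC (6.19 CPM). The collagen VI chains, which form beaded filaments around cells, were at 5.94 CPM (Col6a1), 5.31 CPM (Col6a2) and 4.06 CPM (Col6a3) in d4 EB and at most 0.956 CPM in the other E14Tg2a libraries. Col6a5, a collagen VI chain of another gene cluster, was seen mainly in S+L ESC (1.78 CPM) and d1 EpiLC (2.09 CPM).

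The rest of the members stayed low throughout. Col26a1, a small chain of the reproductive organs, was at 4.23, 2.97, 0.364, 1.52, 1.99, 0.784, 3.48 and 6.98 CPM in the order used above, with 2.91 CPM in R1 WT and 1.97 in dCD, and was the second collagen gene of 2i ESC after Col18a1. Col23a1, a transmembrane chain, was at 1.49 CPM in EpiSC, 2.87 in d2 EB and 6.46 in d4 EB and at most 0.455 CPM in the other E14Tg2a libraries. In d4 EB, Col22a1 was at 2.92 CPM, Col14a1 at 2.29 and Col15a1 at 1.56, each above its other E14Tg2a libraries, where none of them passed 0.549 CPM. Col24a1, a fibrillar chain of bone and cornea, was at 0.956 CPM in d2 EB, and Col4a4, a chain of the kidney basement membrane, at 0.923 CPM in d3 EpiLC. The short chains Col8a1 and Col8a2 were under 0.6 CPM in E14Tg2a and at 1.80 and 0.340 CPM in R1 WT and 1.44 and 1.40 CPM in dCD. Col6a4 and Col6a6, which neighbour Col6a5, were highest in d1 EpiLC with 8 UMIs each. Col5a3, Col11a2, Col17a1 and Col20a1 were at most at 0.594 CPM in each E14Tg2a library.

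Among the cells before EB, d2 EpiLC differed from 2i ESC in 5 of 11 members: 4 were higher, where 16.0% of all genes were, and 1 was lower, where 6.49% were. The higher ones were Col18a1 (5.09-fold, 4.36 to 5.98), Col9a2 with 68 and 8 UMIs, Col4a1 with 43 and 4 and Col2a1 with 24 and 1, and the lower one was Col26a1. In S+L ESC, 6 of 12 members were higher than in 2i ESC, where 9.73% of all genes were, and 0 were lower, where 2.41% were. In EpiSC, 7 of 17 were higher than in d3 EpiLC, where 7.95% of all genes were, and 1, Col18a1, was lower (ratio 0.385, 0.340 to 0.434), where 6.37% were. The higher genes were Col16a1 (36.4-fold, 12.1 to 180), Col2a1 (7.42-fold, 4.85 to 11.8), Col5a1, Col27a1, Col7a1, Col23a1 and Col4a1, while the sum of all collagens was at 103 CPM in EpiSC and 102 CPM in d3 EpiLC. Primitive streak markers were at 428 CPM in EpiSC and 15.9 CPM in d3 EpiLC, and their part was not tested.

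Stretches upstream of RefSeq starts are given for 4 of these genes, because their levels ran differently over the libraries. Col18a1 was abundant from ESC on. Col5a1 was low before EB, with its highest level in d4 EB. Col1a2 and Col3a1 were abundant in d4 EB, and Col3a1 had at most 3 UMIs in any earlier library. The bases are from the 250 upstream of a RefSeq start on GRCm38.p6, without those that overlap an annotated exon, and run 5′ to 3′ on the strand of the gene. Capitals mark 3 promoter motifs on either strand. The CCAAT box was searched as CCAAT or its reverse complement ATTGG. The GC box was searched as GGGCGG or, on the opposite strand, CCGCCC. The core of the TATA box was searched as TATAAA or, read from the opposite strand, TTTATA.
Col18a1, chr10:77166549-77166780, minus strand: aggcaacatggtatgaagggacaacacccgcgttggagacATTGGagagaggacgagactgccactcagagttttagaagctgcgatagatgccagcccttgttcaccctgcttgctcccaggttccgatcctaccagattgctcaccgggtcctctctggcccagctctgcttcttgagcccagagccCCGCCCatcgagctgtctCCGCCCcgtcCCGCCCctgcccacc
Col5a1, chr2:27886175-27886424, plus strand: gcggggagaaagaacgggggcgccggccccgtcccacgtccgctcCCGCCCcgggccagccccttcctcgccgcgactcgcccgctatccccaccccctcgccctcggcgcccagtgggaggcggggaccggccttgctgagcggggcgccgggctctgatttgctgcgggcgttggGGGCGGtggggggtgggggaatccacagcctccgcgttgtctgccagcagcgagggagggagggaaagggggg
Col1a2, chr6:4505370-4505492, plus strand: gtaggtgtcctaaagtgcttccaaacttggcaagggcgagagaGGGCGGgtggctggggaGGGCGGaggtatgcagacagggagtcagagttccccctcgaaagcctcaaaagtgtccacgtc
Col3a1, chr1:45311288-45311537, plus strand: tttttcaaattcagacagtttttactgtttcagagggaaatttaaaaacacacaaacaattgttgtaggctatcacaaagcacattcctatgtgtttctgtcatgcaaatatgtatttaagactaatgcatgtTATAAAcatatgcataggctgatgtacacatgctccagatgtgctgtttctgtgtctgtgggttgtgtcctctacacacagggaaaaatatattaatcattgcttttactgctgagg
The Col1a2 stretch lies within the annotated gene (chr6:4504814-4541544), because the RefSeq start used lies downstream of the annotated start of the gene. Annotated exons cover the bases nearest to that RefSeq start, and a CCAAT in the covered part is not shown. Col18a1 has another window, at a different start, that held none of the motifs. The window of Col3a1 had 35.2% G and C and 1 TATAAA, whereas that of Col5a1 had 76.4% G and C and 2 GC boxes. The median over all windows was 52.4%. Windows were found for 35 of the 44 members (38 windows). GGGCGG occurred in 57.9% of these and in 32.7% of all 32851 windows, CCAAT in 34.2% and 33.8%, and TATAAA in 13.2% and 12.4%. These are matches of letters only.

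Fibrillar and collagen IV chains were then compared as sums. The 11 fibrillar genes together were at 2.06, 6.83, 9.64, 6.36, 4.97, 26.8, 65.7 and 461 CPM over the 8 E14Tg2a libraries, in the order of the ESC (2i, then S+L), EpiLC, EpiSC and EB libraries. The 6 collagen IV genes were at 1.14, 5.44, 1.36, 5.47, 11.4, 21.4, 19.1 and 174 CPM in the same order. Fibrillar UMIs outnumbered collagen IV UMIs with a ratio of 3.44 (3.00 to 3.94) in d2 EB and 2.65 (2.50 to 2.80) in d4 EB. This excess was not particular to EB, since the highest ratio of all libraries was that of d1 EpiLC. There it was 7.07 (4.10 to 13.1), from 106 and 15 UMIs. In d2 EpiLC the ratio was 1.16 (0.815 to 1.67), in d3 EpiLC 0.435 (0.324 to 0.579) and in EpiSC 1.25 (1.07 to 1.47). The ratio was 3.26 (3.14 to 3.40) in R1 WT d4 EB and 1.05 (0.992 to 1.12) in dCD. The excess of fibrillar chains in d2 EB rested largely on Col1a1. Without Col1a1 and Col4a1, the most abundant gene of each kind, the ratio was 1.95 in d2 EB, 3.92 in d4 EB, 2.68 in R1 WT and 1.85 in dCD.

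**Figure D1:**
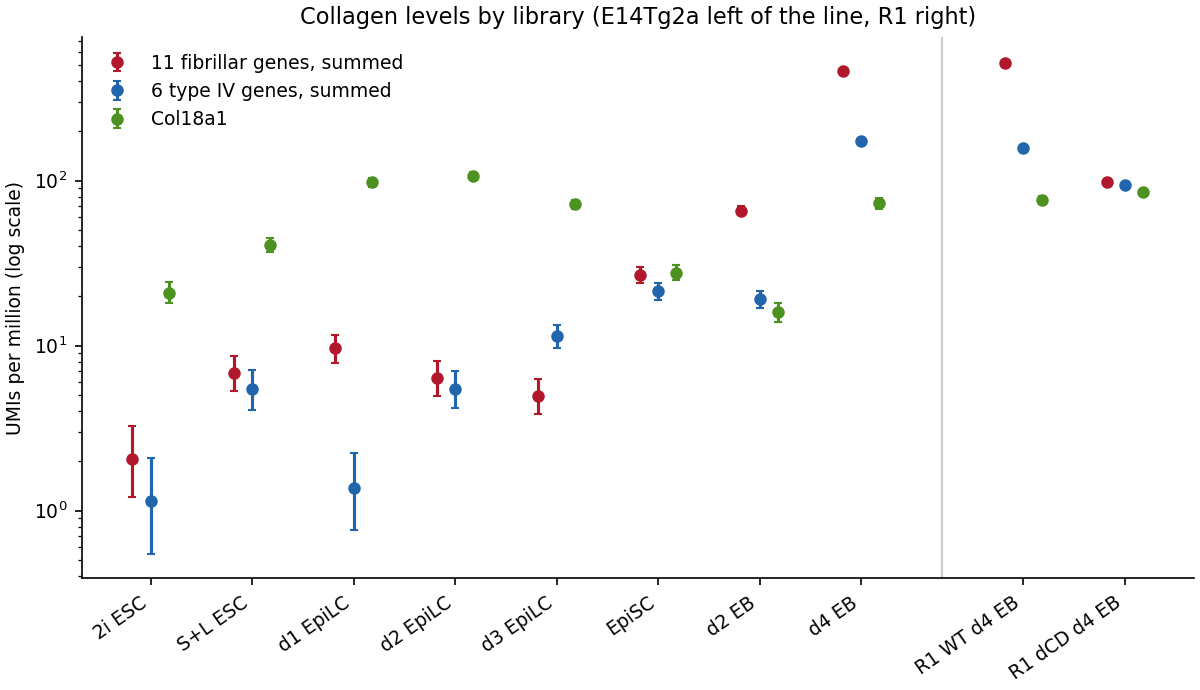
Summed levels of the 11 fibrillar genes and of the 6 type IV (collagen IV) genes and the level of Col18a1 in each of the 10 libraries, in UMIs per 1e+06 UMIs (CPM) on a log axis, with bars for the 95% counting intervals. Col18a1 lies above both sums in ESC and EpiLC, the fibrillar sum leads in d2 EB, d4 EB and R1 WT, and the 3 values lie close together in EpiSC and in R1 dCD.

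From d2 EpiLC to the d2 EB made from them, the sum of all collagens hardly differed, at 134 and 127 CPM, with a ratio of 0.949 (0.886 to 1.02), but its makeup did. A gene was counted as higher or lower where it had at least 10 UMIs over both groups and its CPM, each raised by 1, differed at least 2-fold. In d2 EB, 12 of 23 members were higher, where 13.1% of all genes were, 1 was lower, where 9.79% were, and 10 differed by less than 2-fold. The median log2 ratio was 1.0 for the members and 0.06 for all genes. The lower gene was Col18a1 (15.9 against 107 CPM, ratio 0.149, 0.129 to 0.171). Among the higher ones, Col1a1 had 661 UMIs in d2 EB and 2 in d2 EpiLC (ratio 252, 69.4 to 2083), Col9a1 63 and 1, Col4a2 115 and 13, and Col13a1 47 and 3. Summed fibrillar chains were 10.3-fold higher (8.10 to 13.3) and collagen IV chains 3.50-fold higher (2.64 to 4.69). Over the same libraries, extraembryonic mesoderm markers were at 2.33 CPM in d2 EpiLC and 967 CPM in d2 EB, and extraembryonic ectoderm markers at 23.7 and 655 CPM. Their part was not tested.

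From d2 EB to d4 EB, 15 of 29 members were higher, where 9.73% of all genes were, 3 were lower, where 3.54% were, and 11 differed by less than 2-fold, with a median log2 ratio of 1.26 against 0.11 for all genes. Col3a1 went from 2 to 791 UMIs (ratio 603, 166 to 4990), Col1a2 was 30.5-fold higher (23.3 to 40.6), Col5a2 16.5-fold (10.4 to 27.5), Col4a1 12.3-fold (10.3 to 15.0), Col5a1 8.47-fold, Col4a2 7.83-fold, Col18a1 4.58-fold and Col1a1 4.33-fold (3.96 to 4.74). All 3 collagen VI chains that passed the minimum were among the higher genes, Col6a1 with 57 and 8 UMIs, Col6a2 with 51 and 14, and Col6a3 with 39 and 0. The lower genes were the cartilage-type chains Col27a1 (1.46 and 5.32 CPM), Col9a3 (0.312 and 2.25) and Col9a2 (1.67 and 4.91). Fibrillar chains together were 7.01-fold higher (6.54 to 7.53) and collagen IV chains 9.10-fold higher (8.01 to 10.4). Markers of other cell types also moved between these libraries: the summed endothelial markers were at 45.2 CPM in d2 EB and 269 CPM in d4 EB, blood markers at 0.137 and 1207 CPM, and parietal endoderm markers at 200 and 546 CPM. The parietal endoderm list includes the matrix genes Sparc and Lamb1. The part of the marker differences in the collagen levels was not tested. In such sums, more cells of a type and more RNA per cell cannot be told apart.

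The authors listed 135 barcodes as PGCLC, 91 in d2 EB and 44 in d4 EB, from clusters enriched in germ cell genes. All 135 were found. They were chosen by their expression, so the values below describe the listed cells and are no test. Summed germ cell markers, which are close to the genes used to choose the clusters, were at 455 CPM in listed and 43.2 CPM in other cells of d2 EB, and at 407 and 51.7 CPM in d4 EB. Listed PGCLC contained few collagen transcripts other than Col18a1. In d4 EB, the fibrillar sum was 13.3 CPM in listed PGCLC and 516 CPM in other cells, a ratio of 0.0257 (0.0141 to 0.0432). The collagen IV sum was 8.53 and 194 CPM, a ratio of 0.0439 (0.0200 to 0.0836). In d2 EB, the corresponding levels were 9.21 and 79.8 CPM for fibrillar chains and 4.09 and 22.9 CPM for collagen IV chains, with ratios of 0.115 (0.0756 to 0.169) and 0.179 (0.0913 to 0.318).

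Col1a1 had 3 UMIs in the d2 listed PGCLC (1.02 CPM) and 658 in other d2 EB cells (56.2 CPM), and 5 (4.74 CPM) and 1872 (219 CPM) in d4 EB. In d4 EB, 9.09% of listed PGCLC (2.53 to 21.7) and 82.4% of other cells (77.8 to 86.4) held a Col1a1 UMI, where the cells had medians of 24558 and 21487.5 UMIs. With cells thinned to 15374 UMIs, the shares were 10.5% and 78.5%, with 6 and 31 shallower cells left out. In 2i ESC, which should lack collagen I, 0.441% of cells held a Col1a1 UMI, at a median depth of 33971 UMIs. Col1a2 had 1 UMI in the d4 listed PGCLC and 1119 in the other cells, Col3a1 had 2 and 789, and Col5a2 had 0 and 216. Col4a1 was at 6.64 CPM (2.67 to 13.7) and 118 CPM (111 to 126), and Col4a2 at 1.90 CPM (0.230 to 6.85) and 68.8 CPM (63.3 to 74.6). The listed PGCLC were the low group for each of these genes on both days, with the exception of Col3a1 on d2, where listed and other cells had 0 and 2 UMIs.

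Col18a1 was the exception. In d2 EB it was at 39.9 CPM (33.0 to 47.8) in listed PGCLC and 9.90 CPM (8.18 to 11.9) in other cells, a ratio of 4.03 (3.09 to 5.25), and 49.5% and 16.8% of cells held a UMI. In d4 EB it was at 62.6 CPM (48.4 to 79.6) and 74.0 CPM (68.4 to 80.0), a ratio of 0.845 (0.646 to 1.09), so the groups did not differ beyond counting error. Listed PGCLC were closer between the days than the other cells were.

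**Figure D2:**
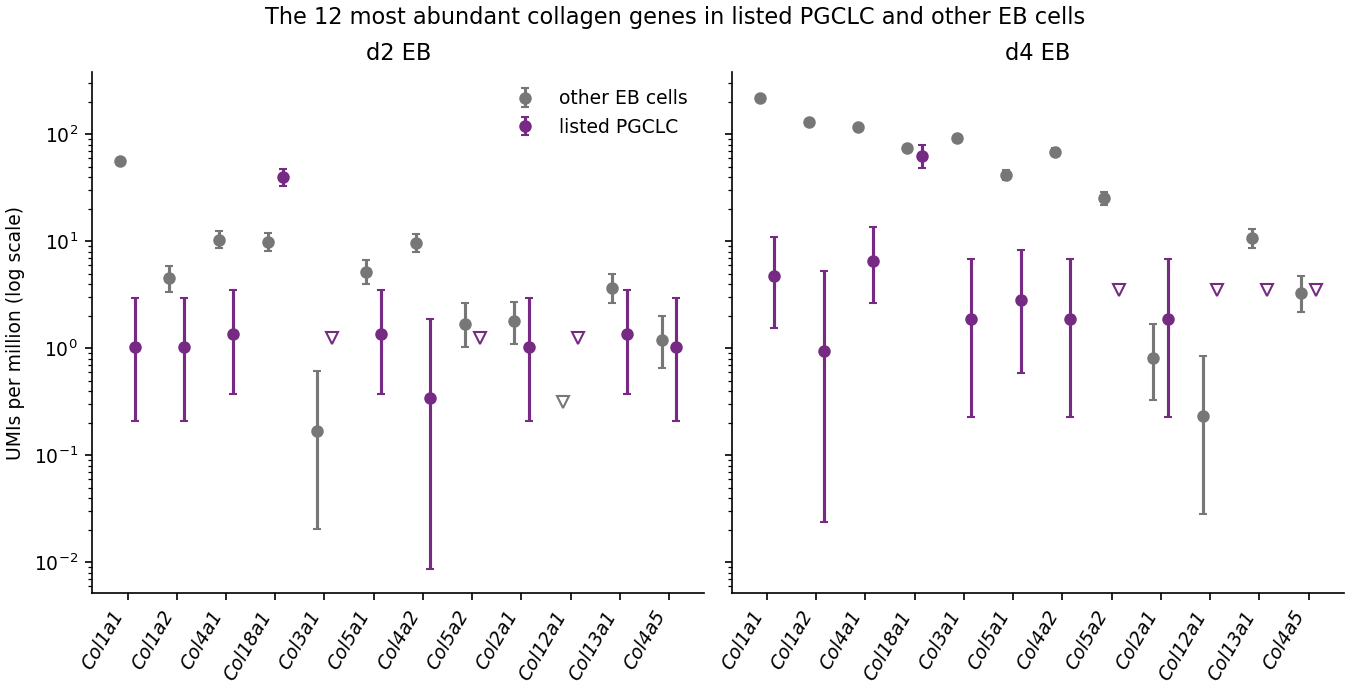
Levels of the 12 most abundant collagen genes in listed PGCLC and in other EB cells at d2 and d4, in CPM on a log axis with 95% counting intervals, where open triangles are upper limits for a count of 0. Col1a1, Col1a2, Col4a1, Col4a2 and Col5a1 lie lower in listed PGCLC on both days, while Col18a1 lies higher at d2 and within counting error at d4.

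By the 2-fold count, 12 of 22 members were lower in the d2 listed PGCLC, where 10.3% of all genes were, and 1 was higher (Col18a1), where 6.06% were. In d4 EB, 22 of 24 members were lower, where 31.3% of all genes were, and 1 was higher, where 8.64% were. That gene was Col9a2, with 8 UMIs in each group (7.59 and 0.936 CPM). The median log2 ratio of the members was -1.14 at d2 and -2.45 at d4, against -0.11 and -0.46 for all genes. With both days pooled, 20 of 29 members were lower, where 14.6% of all genes were, 0 were higher, where 6.41% were, and 9 differed by less than 2-fold. The members that passed the minimum did so mainly through the other EB cells, which are the larger group. Extraembryonic mesoderm markers moved with the collagens, at 25.6 and 690 CPM in d4 listed PGCLC and other cells, as did endothelial markers, at 60.7 and 295 CPM. Their part was not tested.

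Genes that make, cross-link or bind collagen were also compared in d4 EB, where 31.3% of all genes were lower and 8.64% higher in listed PGCLC. Of 18 genes for folding and modifying chains, 11 were lower and 0 higher, among them Serpinh1 (HSP47, the collagen chaperone, 24.7 and 542 CPM), Fkbp10 (a prolyl isomerase for procollagen, 0.948 and 45.7 CPM) and Plod1 (a lysyl hydroxylase, 0.948 and 17.0 CPM). Plod2, another lysyl hydroxylase, was at 22.8 and 14 CPM and P4ha1, a prolyl hydroxylase subunit, at 53.1 and 42.0 CPM. Of 8 genes for processing and cross-linking, 7 were lower, such as Pcolce, an enhancer of procollagen cleavage (7.59 and 98.8 CPM), and 1 was higher, Pcolce2 (12.3 and 1.52 CPM). Of 11 basement membrane partners 7 were lower, with Sparc at 52.2 and 372 CPM but the laminin chain Lamc1 at 23.7 and 28.5 CPM. All 7 partners of fibrils, 2 of 4 receptors and all 6 genes of collagen degradation were lower.

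Clusters of EB cells, found without the collagen genes and their related lists, showed where the transcripts lay. Cell type names rest on fixed marker lists, but no single limit of fold separates named from unnamed clusters. In d2 EB, cluster 1 (387 cells, extraembryonic mesoderm-like) held 76.8% of fibrillar UMIs and 49.6% of collagen IV UMIs, with 72.1% of cells. Cluster 3 (55 cells, extraembryonic ectoderm-like) held 20.7% of fibrillar and 46.1% of collagen IV UMIs with 10.2% of cells. Its collagen IV level, 60.4 CPM (50.4 to 71.7), was above that of cluster 1, 14.6 CPM (12.3 to 17.3), whereas the fibrillar levels were closer, at 93.1 CPM (80.6 to 107) and 77.8 CPM (72.3 to 83.6). Cluster 2 (95 cells, PGC-like, with 87 of the 91 d2 listed PGCLC) was at 7.97 CPM for fibrillar and 3.98 CPM for collagen IV chains.

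In d4 EB, the clusters with the highest fibrillar and the highest collagen IV levels were different ones. Cluster 1 (254 cells, extraembryonic mesoderm-like) held 95.5% of fibrillar UMIs with 69.0% of cells, at 789 CPM (765 to 813), and also 38.9% of collagen IV UMIs, at 121 CPM (112 to 131). Cluster 4 (27 cells, endothelium-like) held 47.3% of collagen IV UMIs with 7.34% of cells, at 657 CPM (612 to 705), while its fibrillar sum was 38.3 CPM (28.0 to 51.1). In this cluster Col4a1 was at 418 CPM (382 to 456), Col4a2 at 239 CPM (212 to 268) and Col18a1 at 218 CPM (192 to 246), but Col1a1 at 8.32 CPM (3.99 to 15.3) and Col1a2 at 2.50 CPM. The ratio of fibrillar to collagen IV UMIs was 6.51 (5.99 to 7.08) in cluster 1, 0.544 (0.431 to 0.684) in cluster 3 (38 cells, extraembryonic ectoderm-like) and 0.0582 (0.0423 to 0.0784) in cluster 4. Cluster 2 (49 cells, with all 44 d4 listed PGCLC but led by globin genes, and left unnamed) was at 28.5 CPM for fibrillar and 11.7 CPM for collagen IV chains. Of its 10978 UMIs of blood markers, 27 lay in the listed PGCLC, as did 14 of its 34 fibrillar UMIs.

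The R1 libraries gave 10 clusters. Fibrillar levels were highest in cluster 5 (377 cells, all WT, led by Tbx4 and Pitx1, unnamed), at 759 CPM (735 to 784), and in cluster 1 (544 WT and 120 dCD cells, led by Ctla2a and Cdh5, unnamed), at 741 CPM (723 to 760). Cluster 6 (156 WT and 147 dCD cells, extraembryonic ectoderm-like) was at 254 CPM. In cluster 1, endothelial markers had a median fold of 4.30 over the other R1 cells, with 6 of 8 at least 2-fold. For extraembryonic ectoderm markers in cluster 6 these values were 3.26 and 5 of 7. Summed extraembryonic mesoderm markers were also higher in cluster 6 (1843 CPM) than in clusters 5 (1654 CPM) and 1 (1416 CPM). The collagen IV sum was by far highest in cluster 10 (26 WT and 9 dCD cells, endoderm-like), at 1674 CPM, with Col4a1 at 1158 CPM and Col4a2 at 496 CPM. This cluster held 18.6% of the collagen IV UMIs of both libraries with 1.12% of cells. The ratio of fibrillar to collagen IV UMIs was 8.21 (7.44 to 9.06) in cluster 5, 4.46 (4.21 to 4.72) in cluster 1, 0.911 (0.851 to 0.975) in cluster 6 and 0.0387 (0.0273 to 0.0532) in cluster 10.

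**Figure D3:**
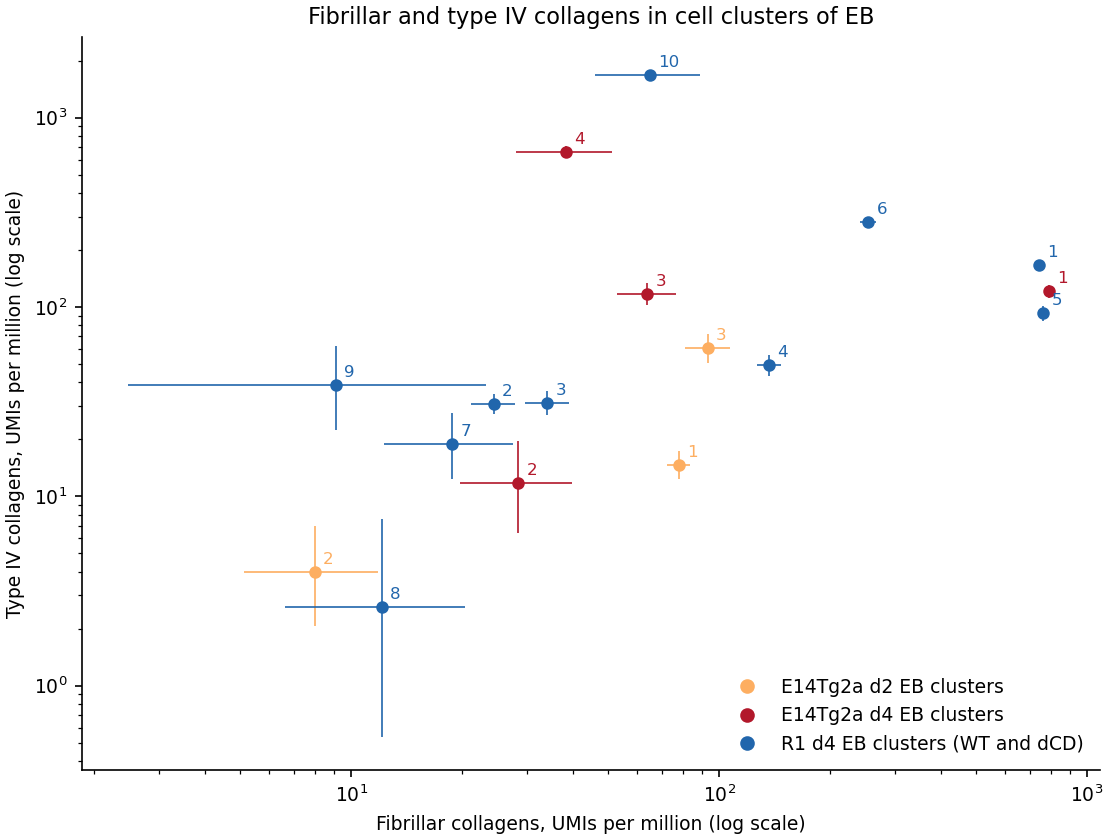
Summed fibrillar level (horizontal) against summed collagen IV level (vertical) of each numbered cluster of d2 EB, d4 EB and R1 d4 EB, in CPM on log axes, with lines for the 95% counting intervals. R1 cluster 10 and d4 EB cluster 4 stand at the top with low fibrillar levels, R1 clusters 1 and 5 and d4 EB cluster 1 stand at the far right, and the PGC-like clusters lie at the lower left.

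Single genes had their own places among the R1 clusters. Col12a1 was at 41.3 CPM in the extraembryonic ectoderm-like cluster 6, 10.4 CPM in cluster 1 and 10.5 CPM in cluster 4, and at 1.41 CPM in the fibrillar-rich cluster 5. Col2a1 was at 26.0 CPM in cluster 4 (23 WT and 449 dCD cells, unnamed) and at most 9.89 CPM elsewhere. Col18a1 was at 135 CPM in the PGC-like cluster 8 (70 WT and 3 dCD cells) and 133 CPM in cluster 2 (115 WT and 427 dCD cells, naive pluripotency-like), where Col1a1 was at 4.33 and 8.63 CPM, and it was between 27.3 and 106 CPM in the other clusters. Col4a1 had 1 UMI in the whole of cluster 8, at 0.866 CPM.

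Chains of 1 trimer were found in the same cells to different degrees. In d4 EB, 234 of 246 cells with a Col1a2 UMI also had Col1a1, and the correlation of log levels over 368 cells was 0.67. In R1 WT it was 0.23, with 245 of 278 Col1a2 cells holding Col1a1, and in dCD 0.25, with 51 of 128. Of all cells, 73.6% held a Col1a1 UMI in d4 EB, 66.5% in R1 WT and 9.30% in dCD. The counts of cells with both chains are to be read against these shares. For Col4a1 and Col4a2, the correlation was 0.70 in d4 EB, 0.60 in R1 WT and 0.67 in dCD. For Col5a1 and Col5a2 it was 0.30, 0.13 and 0.24. These are descriptions over cells that share a library and differ in depth.

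Genes were ranked by how closely their levels over R1 WT cells resembled the fibrillar sum. The ranking covered 8940 genes with a UMI in at least 10% of cells. Collagens, the lists of related genes and the cell type markers were left out of it. The first genes were Pmp22 (r = 0.71 over 1416 cells), Gnas (0.70), Igf2 (0.68), Tmsb4x (0.67) and Cald1 (0.66). In dCD the same genes had r of 0.46, 0.51, 0.43, 0.48 and 0.43. For Col4a1 with Col4a2 the first genes were Flt1 (0.46), Clic1 (0.41), App (0.39), Anxa3 (0.39) and Ctsl (0.38), with 0.33, 0.23, 0.28, 0.24 and 0.22 in dCD. Both sets of genes were picked for high r in WT, so lower values in dCD can follow from that choice. Detection differed as well, with Igf2 in 81.7% of WT and 20.8% of dCD cells, though less for Gnas (91.9% and 81.4%).

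Between R1 WT and dCD d4 EB, the question was how the loss of MLL3/4 catalytic activity goes with the makeup of the EB. Collagens together were at 830 CPM in WT and 336 CPM in dCD, a ratio of 0.405 (0.394 to 0.416). The fibrillar sum was 519 CPM (509 to 529) in WT and 98.9 CPM (94.8 to 103) in dCD, and the collagen IV sum 159 CPM (154 to 165) and 93.9 CPM (90.0 to 97.9). The ratios of dCD to WT were 0.190 (0.182 to 0.199) for fibrillar and 0.591 (0.559 to 0.624) for collagen IV chains, so the intervals lay apart. For FACIT chains the ratio was 0.807 (0.725 to 0.899), for transmembrane chains 0.595 (0.506 to 0.699), for collagen VI chains 0.869 (0.730 to 1.03) and for multiplexins 1.11 (1.04 to 1.19).

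The fibrillar difference lay in a few abundant chains. Col1a1 was 12.6-fold lower in dCD (11.6 to 13.6), Col3a1 11-fold lower (8.23 to 15.1) and Col5a1 5.19-fold lower (4.62 to 5.84). Of dCD cells 9.30% held a Col1a1 UMI and of WT cells 66.5%, or 6.80% and 60.2% with cells thinned to 6831 UMIs. In dCD, the top 10 cells for Col1a1 held 33.5% of its UMIs. The top 10 cells for Col3a1, ranked separately, held 39 of its 49 UMIs. The partner chains differed less. Col1a2 had a ratio of 0.498 (0.428 to 0.579) and Col5a2 of 0.625 (0.541 to 0.722). Among fibrillar chains of cartilage type, Col2a1 was at 8.21 CPM in dCD and 5.54 CPM in WT, a ratio of 1.48 (1.17 to 1.89), Col27a1 had a ratio of 1.91 (1.41 to 2.62) and Col11a1 of 1.26 (1.02 to 1.54). The median log2 ratio over the 11 fibrillar genes was therefore -0.03, close to the 0.03 of all genes, although the ratio of their sums was 0.190.

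Over all members, 8 of 36 were lower in dCD, where 3.68% of all genes were, 3 were higher, where 6.31% were, and 25 differed by less than 2-fold, with a median log2 ratio of -0.21. Besides Col1a1, Col3a1 and Col5a1, the lower genes were Col6a3 (0.306 and 5.15 CPM in dCD and WT), Col23a1 (1.18 and 4.76), Col14a1 (0.306 and 1.80), Col22a1 (1.27 and 3.74) and Col13a1 (5.59 and 12.6). The higher genes were Col9a3 (7.91 and 3.21 CPM, ratio 2.47, 1.85 to 3.32), Col25a1, a transmembrane chain of neurons (3.84 and 1.31 CPM, ratio 2.93, 1.89 to 4.69), and Col5a3, the third chain of collagen V (1.88 and 0.389 CPM, ratio 4.83, 2.25 to 11.9). Summed levels of the collagen VI chains diverged, since Col6a1 had a ratio of 1.17 (0.917 to 1.48), Col6a2 of 2.02 (1.35 to 3.06) and Col6a3 of 0.0594 (0.0233 to 0.127). The Col6a1 level in dCD rested on few cells. There 10 cells held 65.4% of its 162 UMIs, against 18.4% of 125 in WT. A Col6a1 UMI was held by 2.59% of dCD and 7.84% of WT cells. Col4a1 and Col4a2 had ratios of 0.576 (0.537 to 0.619) and 0.580 (0.525 to 0.640), and Col4a5 of 0.734 (0.606 to 0.889). Col18a1 differed little, at 1.11 (1.04 to 1.19).

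**Figure D4:**
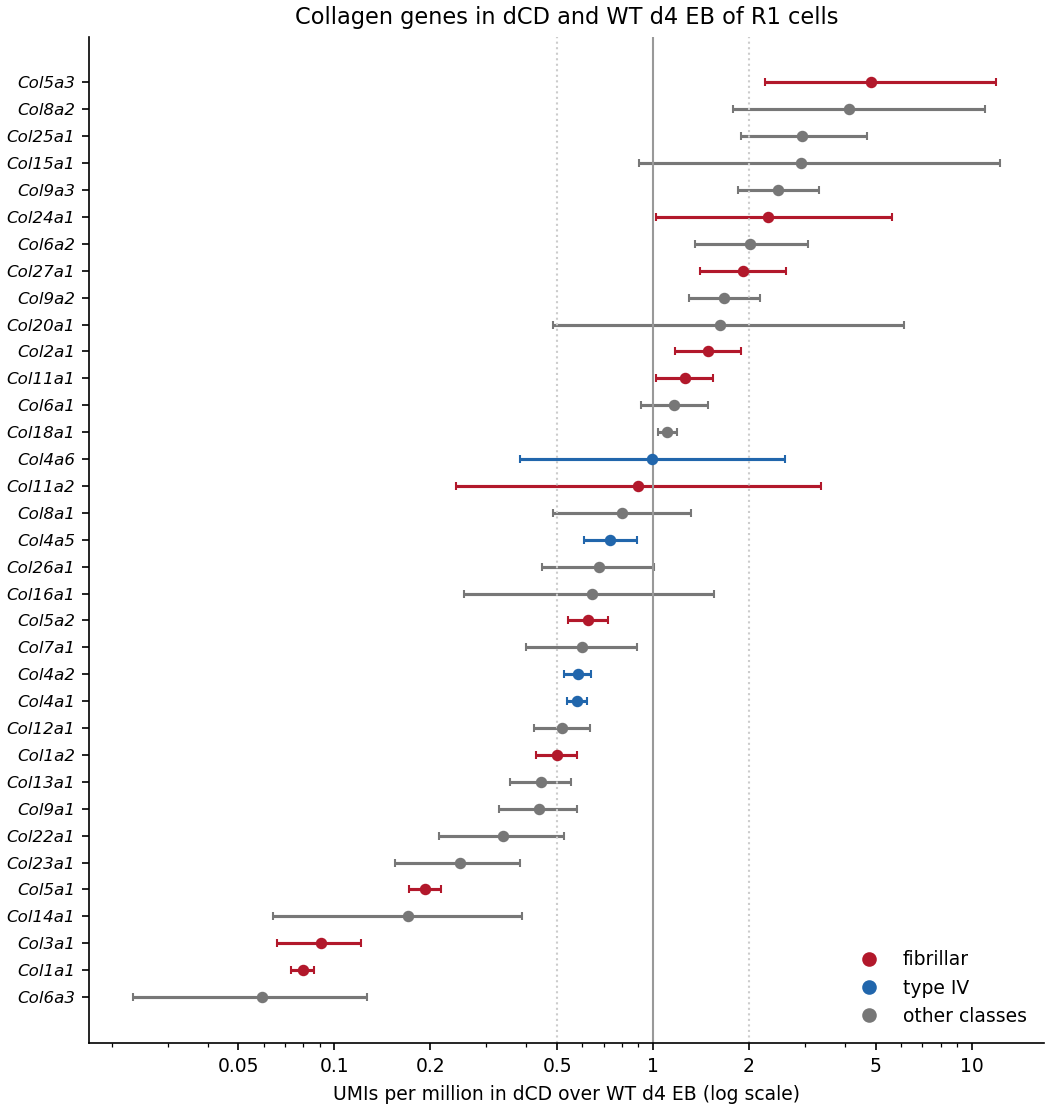
Ratio of dCD to WT CPM for 35 collagen genes with at least 10 UMIs in R1 d4 EB, on a log axis with 95% counting intervals, colored as fibrillar, type IV or other, with dotted lines at 0.5 and 2. Col6a3, Col1a1 and Col3a1 lie farthest below 1, other fibrillar genes such as Col5a3 and Col27a1 lie above it, and Col17a1, with 11 UMIs in dCD and 0 in WT, is not drawn.

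Cell type markers also differed between the R1 libraries. Summed extraembryonic mesoderm markers were at 1370 CPM in WT and 362 CPM in dCD, parietal endoderm markers at 929 and 511 CPM, naive pluripotency markers at 571 and 862 CPM, extraembryonic ectoderm markers at 833 and 816 CPM and blood markers at 45.8 and 0.175 CPM. The parietal endoderm list includes Sparc and Lamb1, which also count among the basement membrane partners. Its sum was also high in the fibrillar-rich clusters 1 and 5, at 1069 and 1001 CPM. The share of mitochondrial UMIs was 5.21% in WT and 6.84% in dCD. Clusters 1 and 5 held 53.0% and 35.2% of the fibrillar UMIs of WT, and cluster 5 had no dCD cell. In dCD, cluster 1 held 31.5% and cluster 4 29.9% of the fibrillar UMIs. The 9 dCD cells of cluster 10 held 24.6% of the collagen IV UMIs of that library, and without cluster 10, which was left out after its level had been seen, the collagen IV ratio was 0.513.

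Collagen levels also differed between the lines inside clusters 1 and 6, which had over 100 cells of each line. With another number of principal components, the match of cluster 1 held 48 dCD cells in place of 120, and no value was taken from it. In cluster 1, Col1a1 was at 562 CPM (544 to 579) in WT and 185 CPM (164 to 208) in dCD, a ratio of 0.329 (0.290 to 0.372). Col1a2 went the other way, with 13.5 CPM (10.9 to 16.5) and 89.7 CPM (75.1 to 106), a ratio of 6.63 (5.07 to 8.71). The ratio of Col1a1 to Col1a2 UMIs was thus 41.5 (33.9 to 51.4) in WT and 2.06 (1.67 to 2.55) in dCD. In cluster 6, Col1a1 was at 170 CPM (156 to 185) and 67.2 CPM (58.2 to 77.1), and Col1a2 at 3.33 CPM (1.66 to 5.96) and 10.9 CPM (7.51 to 15.3), so that the ratio of the chains was 51.1 (28.3 to 103) in WT and 6.15 (4.24 to 9.18) in dCD. In both clusters the collagen I chains thus differed in opposite directions. In the naive pluripotency-like cluster 2 (115 WT and 427 dCD cells), Col1a1 was at 35.1 CPM in WT and 1.05 CPM in dCD. Under other ways of clustering, the match of cluster 2 held 2 or 3 WT cells and 445 to 476 dCD cells. Its WT and dCD cells were thus largely apart in those. In cluster 2 itself, Col1a2 had 5 and 7 UMIs, too few to give a direction (ratio 0.401, 0.109 to 1.60). There 3 of 14 members were higher in dCD, where 8.48% of all genes were, and 2 were lower, where 3.08% were.

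Col5a1 was lower in dCD in both clusters, with ratios of 0.599 (0.480 to 0.741) in cluster 1 and 0.419 (0.343 to 0.511) in cluster 6, and Col5a2 higher, with 1.57 (1.20 to 2.03) and 1.36 (1.01 to 1.84). Col11a1 was higher too, with 2.02 (1.38 to 2.92) and 9.29 (3.31 to 36.0), the latter from 34 and 4 UMIs, as was Col9a3, with 6.13 (3.74 to 10.1) and 4.65 (1.52 to 19.0). Collagen IV chains differed between the clusters. In cluster 1 Col4a1 was at 148 CPM in dCD and 95 CPM in WT, and in cluster 6 at 104 and 196 CPM. Transcripts of cluster 1 were unevenly spread over its cells in both lines. Among its 120 dCD cells, the top 10 held 47.5% of the Col4a1 UMIs and 47.0% of those of Col1a2. For Col1a1 they held 49.3% and for Col18a1 63.8%, each counted over its own top cells. Among its 544 WT cells, the top 10 held 24.3%, 26.0%, 7.50% and 21.1% in the same order. These 10 are a smaller part of the WT cells, so the shares do not show which line was more concentrated. Col12a1 was at 25.5 and 55.7 CPM in cluster 6 and at 10.0 and 10.4 CPM in cluster 1. Col6a1 was at 81.0 CPM in dCD and 11.1 CPM in WT of cluster 1, but 10 cells held 83.5% of its 121 dCD UMIs.

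**Figure D5:**
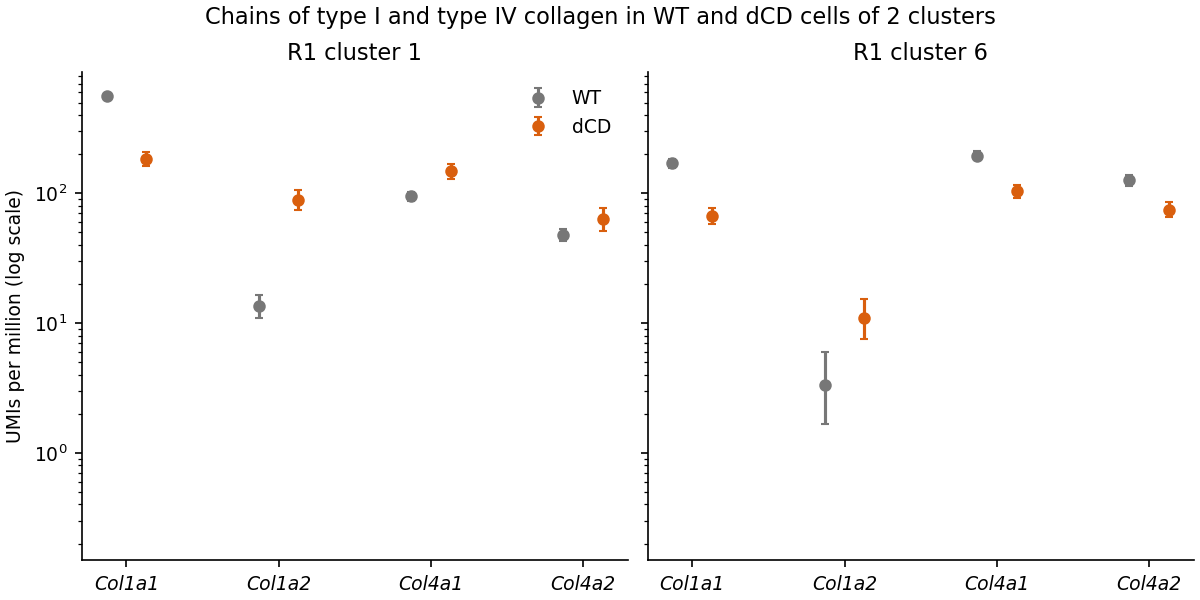
Levels of Col1a1, Col1a2, Col4a1 and Col4a2 in WT and dCD cells of R1 clusters 1 and 6, in CPM on a log axis with 95% counting intervals. Col1a1 lies lower and Col1a2 higher in dCD in both clusters, while Col4a1 and Col4a2 lie higher in dCD in cluster 1 and lower in cluster 6.

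Counted over members, 7 of 29 were higher in dCD in cluster 1, where 4.97% of all genes were, and 4 were lower, where 4.84% were. In cluster 6, 7 of 20 were higher, where 8.30% of all genes were, and 5 were lower, where 3.16% were. The median log2 ratio of the members was 0.24 and 0.25, against 0.02 and 0.05 for all genes. The fibrillar sum was lower in dCD in both clusters, with ratios of 0.598 (0.552 to 0.646) and 0.584 (0.526 to 0.647). The medians lay above 0 and the fibrillar sums below WT, but they are not like measures. The medians weigh all members that passed equally, whereas the sums cover the fibrillar genes only and follow the most abundant ones. Extraembryonic mesoderm markers were at 1561 CPM in WT and 727 CPM in dCD of cluster 1 and at 2450 and 1179 CPM in cluster 6, endothelial markers at 111 and 223 CPM in cluster 1, and endoderm markers at 228 and 579 CPM in cluster 6. The part of these marker differences was not tested. The endoderm list includes the epithelial genes Epcam and Cldn6, and its sum was also 388 CPM in d2 EpiLC and 420 CPM in EpiSC.

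Genes related to collagen were also compared between dCD and WT, where 3.68% of all genes were lower and 6.31% higher. Of 18 genes for folding and modifying chains, 2 were lower in dCD, Creb3l1, a transcription factor that activates collagen I genes (11.3 and 32.2 CPM), and Serpinh1 (284 and 620 CPM), and 0 were higher. Of 13 genes for processing and cross-linking, 4 were lower, namely Adamts2, the procollagen N-proteinase (1.49 and 17.7 CPM), Loxl1, a lysyl oxidase (2.58 and 21.4 CPM), Pcolce (20.2 and 57.0 CPM) and Bmp1, the procollagen C-proteinase (31.5 and 72.9 CPM). None of the 12 basement membrane partners or 6 receptors passed in either direction (0 of each), with Sparc at 414 and 742 CPM and the integrin chain Itgb1 at 183 and 362 CPM. Of 8 partners of fibrils, 2 were lower (Lum and Postn), and of 6 genes of collagen degradation, 3 were lower (Timp3, Mmp9 and Timp2). Between d2 and d4 EB, where 9.73% of all genes were higher and 3.54% lower, the same lists had 0 lower genes each, and 6 of 18, 4 of 10, 4 of 11, 5 of 7, 2 of 4 and 3 of 6 were higher in d4 EB, in the order of folding, processing, basement membrane, fibril, receptor and degradation genes.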

How the data were processed

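Single cells were profiled with 10x 3′ chemistry, v2 for E14Tg2a and v3 for R1. The deposited tables hold whole UMI counts per gene and cell. Per the submitters' processing notes and the methods, the authors counted the E14Tg2a libraries with Cell Ranger on GRCm38 and aggregated them after subsampling reads to equal mapped depth, after which median UMIs per cell still differed between libraries. For R1, the authors discarded cells in which under 2000 genes were detected. The counting tool for that table is not given in the sources used here.

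UMI counts were summed per library, cluster or list of cells and scaled to 1e+06 UMIs. Intervals are exact Poisson, conditional or Clopper-Pearson intervals at 95%. In the text a count of 0 is given a limit of 3 counts, whereas open triangles in the figure mark the upper end of the exact Poisson interval. A gene was counted as higher or lower past 2-fold on CPM plus 1, with at least 10 UMIs. Values are given in full for the 12 most abundant members and for the partner chains of their trimers. Some others outside this rule were named after their values were seen. Other lists give the largest differences among genes with at least 50 UMIs, with further genes named after their values were seen. The ratio computation was tested on simulated data. The collagens and the lists of related genes were chosen with earlier results of these data known. E14Tg2a EB were clustered by k-means (scikit-learn 1.9.0; 2000 variable genes, 20 principal components, k of 3 and 4) and R1 EB with Seurat 5.3.0 (R 4.3.3), both without collagens and related genes. Correlations used genes with a UMI in at least 10% of cells. Doublets called with scanpy 1.11.5 (0.589% of dCD to 6.23% of d2 EpiLC cells) were kept. Other software was Python 3.11.15, numpy 2.4.6, scipy 1.17.1, pandas 2.3.3 and matplotlib 3.10.9. The alternatives changed scaling, filters, fold, pseudocount, doublets, weights of cells and clustering.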

Additional observations from a re-analysis of the deposited data

Results flagged for a closer look

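Some collagen genes differed in opposite directions under the same contrast. Between dCD and WT cells, Col4a1 had a ratio of 1.56 in R1 cluster 1 and 0.531 in cluster 6, Col4a2 of 1.33 and 0.594, and Col18a1 of 1.27 and 0.786. The Col18a1 ratio in cluster 1 was 0.974 and 0.896 under other ways of clustering. Between listed PGCLC and other EB cells, Col9a2 had a ratio of 0.430 at d2, from 7 and 65 UMIs, and 8.11 at d4, from 8 and 8 UMIs. Each pair had counting intervals on opposite sides of 1. With 1 library per condition, the difference between the ratios was not tested.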

How the results depend on the processing

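No paired analysis was possible because each condition had 1 library. No library was left out, for the same reason. Of 211 alternative values of the main results, 154 stayed within the limits and 57 moved, and of the ratios among them 0 crossed 1. Of 266 log2 ratios of single members between libraries or cell lists, 222 stayed inside the counting interval of the reported value, and 1 changed sign, that of Col2a1 in listed PGCLC (from -0.08 to 0.04 without mitochondrial and ribosomal protein genes). Within R1 clusters, the dCD to WT ratio crossed 1 for Col18a1 in cluster 1 (0.974 at resolution 0.6, 0.896 with doublets left out) and for Col6a1 in cluster 6 (from 1.37 to 0.698 with other components). Causes were not tested, apart from what an alternative itself changes. Cluster 10 was left out after the data had been seen.

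With a 3-fold limit, 11 members were lower in listed PGCLC, 4 lower and 0 higher in dCD, 0 lower in d4 against d2 EB and 7 higher in d2 EB against d2 EpiLC. At 1.5-fold, 14 were lower and 7 higher in dCD. A pseudocount of 0.1 gave 7 higher in dCD, cells with at least 3000 genes 1, no filter 1 higher in listed PGCLC, and a minimum of 50 UMIs 7 higher in d2 EB against d2 EpiLC.

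Scaled without mitochondrial and ribosomal protein genes, Col18a1 was at 37.1 CPM in 2i ESC, 173 in d2 EpiLC and 44.8 in EpiSC. Fibrillar and collagen IV sums were then 111 and 32.4 CPM in d2 EB, 744 and 281 in d4 EB, 704 and 216 in WT and 142 and 135 in dCD, with dCD to WT ratios of 0.201 and 0.625. As means over single cells, these sums were 71.7 and 16.8 CPM in d2 EB, 554 and 135 in d4 EB and 563 and 142 in WT, and the fibrillar sum 103 in dCD. The ratios of fibrillar to collagen IV were then 4.27, 4.10, 3.98 and 1.13 in d2 EB, d4 EB, WT and dCD, the collagen IV ratio of dCD to WT 0.647 and the fibrillar ratio of d4 to d2 EB 7.73, or 6.51 with median-ratio scaling. Without Col1a1 and Col4a1, fibrillar over collagen IV was 1.95, 3.92, 2.68 and 1.85. Without cluster 10, the WT sums were 530 and 139 CPM with a ratio of 3.81, and in dCD collagen IV was at 71.2 CPM, with a ratio of 1.39 and a dCD to WT ratio of 0.513.

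With k larger by 1, fibrillar chains in d2 EB cluster 1 were at 85.6 CPM and collagen IV in d4 EB cluster 3 at 202. Fibrillar chains in R1 cluster 1 were at 813 CPM with other components, 784 at resolution 0.6 and 779 with doublets left out before clustering. With doublets left out, collagen IV in cluster 6 was at 298 CPM and its dCD to WT ratio in cluster 1 was 1.23. The fibrillar ratio in cluster 6 was 0.717 with other components and 0.704 without doublets. With other components, the match of cluster 1 held too few dCD cells to give a value, and cluster 2 was not compared.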
